A study of Oryza sativa with 6 samples.

Results

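NAC and bZIP genes encode 2 large families of plant transcription factors, and their transcripts were measured here in leaf blades of rice (Oryza sativa). Members were taken by name: a gene was included where its symbol or a synonym in the RefSeq gene table was NAC, ONAC, SNAC or BZIP followed by a number, with an optional Os prefix, and ABF2 (BZIP23) was left out. The table held 28 such genes, of which 25 were paired with a probe set (a group of short oligonucleotides that reads 1 transcript): 8 of 10 NAC genes and 17 of 18 bZIP genes, among 17905 genes measured in all. OsNAC8 (LOC4325120), NAC077 and OsbZIP19 (LOC4328871) were paired with none. Genes of both families that carry only a locus identifier in the table are outside the rule, so the counts are not counts of whole families. The 3 arrays of the overexpressor came from Os-LBD37 overexpressor line RK16331-13, a single transgenic line, and the other 3 from plants carrying the empty vector. Plants of both kinds were hygromycin-resistant and grown in hydroponic culture, and the 5th and 6th leaf blades were taken at a time set by the appearance of the 8th. Os-LBD37 is a LOB-domain transcription factor gene, and its own transcript was not analysed here, so the labels were not checked against it. The labels name neither the promoter of the transgene nor the age in days, and with 1 line per construct the transgene and any other difference of the 2 lines cannot be told apart.

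NAC proteins bind DNA through a conserved domain at their amino end. Several rice NAC genes respond to drought, salt, cold and abscisic acid, and others act in senescence, branching or secondary wall formation. bZIP proteins bind DNA as dimers through a basic region next to a leucine zipper. Among them, TGA factors work with NPR1-type proteins in defence signalling, and membrane-linked or spliced bZIP factors drive the response to unfolded protein in the endoplasmic reticulum (ER).

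Values are probe set intensities in arbitrary units. Rice probe sets above background made up 50.9 to 55.4 percent of each array; background is the 95th percentile of 132 probe sets for transcripts absent from rice, here between 27.3 and 45.4. The leaf genes CAB2R and rbcS (LOC4351966) were above background on all arrays, at no less than 20502 and 19825, and the shoot meristem gene OSH1, the root silicon exporter gene Lsi2 and the anther genes RTS and C6 were above it on none. Of 4 seed markers, GLUA1 was above background on none, and GLB1, GLUA2 and RAG2 were above it on all arrays, at 1783 to 2533, 575 to 1302 and 59.97 to 127. The root silicon channel gene Lsi1 was above it on all arrays, and the floral gene Lhs1 on the 3 empty vector arrays only. Lhs1 had 9.30, 28.8 and 18.5 on the overexpressor arrays, against 564, 1020 and 784 on the empty vector arrays. Its log2 change was -4.53 and passed (limma adjusted p = 0.00794). The leaf gene RBCS1 was above background on none. The leaf gene PPDKB was above it on all arrays, at 900, 6044 and 934 in the overexpressor, against 4937, 9042.5 and 2984 in the empty vector line. Its log2 change was -1.56 and did not pass (limma adjusted p = 0.429), but it passed without both replicate 2 arrays (limma adjusted p = 0.0467). The summed level of 4 inflorescence and shoot apex markers was 154 to 678 on the overexpressor arrays and 1671 to 1959 on the empty vector arrays, most of it from Lhs1 and MADS14 (LOC4334140); their part in the results was not tested. The anther list also took in the cystatin gene OC-I, through the synonym OsCP1, at 16274 to 20536 on the overexpressor arrays and 23022 to 26887 on the empty vector arrays, and CP1 itself was above background on 1 empty vector array. The replicate 2 arrays of both lines stood apart in clock genes: CCA1 had a log2 departure from the other arrays of its line of 4.88 in the overexpressor and 3.00 in the empty vector line. For control transcripts of actin, GAPDH and cyclophilin, the mean log2 ratio of 3' end to start signal was 2.37 on empty vector replicate 2. On the other arrays that ratio was 1.25 to 1.67, and its part in the results was not tested. For most NAC and bZIP genes the log2 change without both replicate 2 arrays is given too. In bulk leaf, fewer cells of a type and less RNA per cell cannot be told apart.

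Of the 8 NAC genes, 0 passed the test between the lines, limma with Benjamini-Hochberg adjustment over all genes at an adjusted p of at most 0.05, where 0.525 percent of all genes passed. With the replicate number as a block 0 passed too, where 1.32 percent of all genes did. The ordinary linear model also called 0, but it called only 1 of all 17905 genes, so that count says little. By limma 1 NAC gene, ONAC045, had an unadjusted p under 0.05, against 14.2 percent of all genes. ONAC045 was also the 1 NAC gene whose lines did not overlap, against 21.2 percent of all genes. The log2 changes of the 8 genes, overexpressor minus empty vector on the log2(intensity + 16) scale, ran from -1.25 to 1.76 with a median of -0.05, beside 0.01 over all genes. Of the 8, 3 were above 0 and 5 below. On all arrays 5 NAC genes were above background and 3, OsNAC2, ONAC010 and OsNAC7, on part of them, and 7 passed a filter that asks for all arrays of at least 1 line, as 83 percent of all genes did.

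ONAC045 (LOC4349650) encodes a NAC factor that is induced in rice by drought, salt and abscisic acid and raises tolerance of drought and salt when overexpressed. Its intensity was 582, 386 and 637 on overexpressor replicates 1 to 3, against 105, 197 and 141 on empty vector replicates 1 to 3. All 3 overexpressor values lay above all 3 empty vector values, and the lines came closest on the replicate 2 arrays. The means were 535 ± 132 in the overexpressor and 148 ± 46.1 in the empty vector line (SD, n = 3 each). The log2 change was 1.76 (SE 0.33, n = 3 arrays a line; limma adjusted p = 0.0758), with a 95% interval of 1.00 to 2.52, and it did not pass. Within replicates 1, 2 and 3 the log2 difference was 2.30, 0.92 and 2.06. Without both replicate 2 arrays the change was 2.18 ± 0.24 and passed (limma adjusted p = 0.041), where 1.35 percent of all genes passed. With array weights it was 1.97 and passed (limma adjusted p = 0.0259), where 405 of all 17905 genes passed, against 94 in the main fit. With the replicate number as a block it did not pass (adjusted p = 0.0789), nor without any single array (adjusted p from 0.087 to 0.247).

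**Figure D1:**
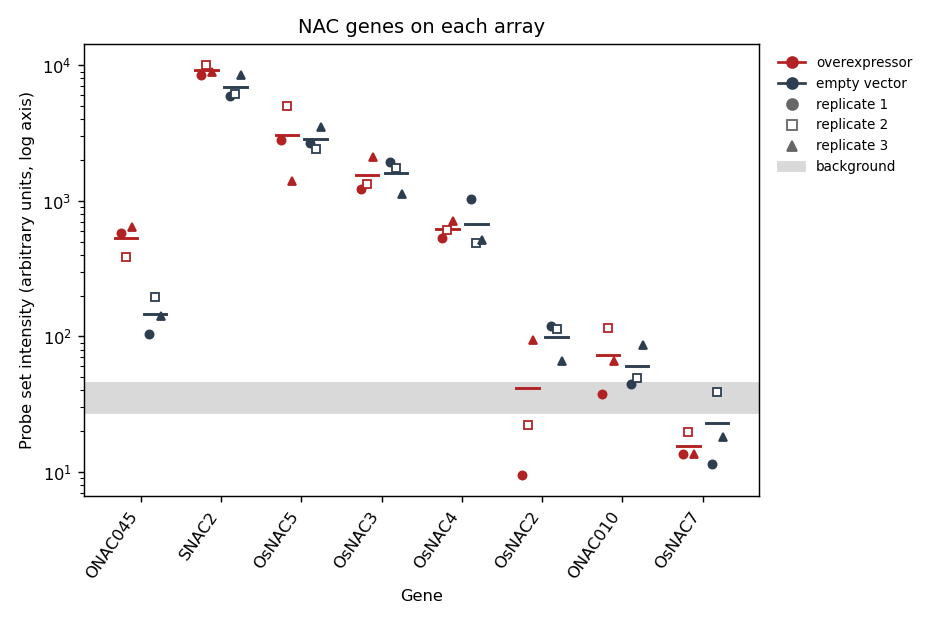
Probe set intensity (log axis) of the 8 NAC genes on each array, overexpressor left of empty vector for each gene, with marker shapes for replicates 1 to 3, short lines at the mean of 3 arrays and a grey band over the background levels of the 6 arrays. ONAC045 is the gene whose 3 overexpressor arrays, between 386 and 637, all sit above its empty vector arrays, between 105 and 197, and OsNAC7 lies in or under the band on all arrays.

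The other 3 stress-related NAC genes were bright on every array and overlapped between the lines. SNAC2 (LOC4325006, also OsNAC6), which is induced by cold, salt, drought and wounding, had 8482, 10144 and 8964 on the overexpressor arrays, against 5969.6, 6172 and 8535 on the empty vector arrays. Its overexpressor values were high on all 3 arrays, and empty vector replicate 3 reached into their range. The log2 change was 0.43 (SE 0.22, n = 3 arrays a line; limma adjusted p = 0.445), with an interval of -0.08 to 0.94. OsNAC5 (LOC4349963), a gene induced by abscisic acid and drought, had 2802, 4991 and 1393 on the overexpressor arrays, against 2676, 2408 and 3481 on the empty vector arrays. The overexpressor held both the highest and the lowest of these 6 values, and the spread within lines, an SD of 0.68 on the log2 scale, was wider than the median of 0.38 over all genes. Its log2 change was -0.07 (SE 0.44, n = 3 arrays a line; limma adjusted p = 0.969), and -0.62 ± 0.36 without both replicate 2 arrays (adjusted p = 0.407). The other 2 probe sets of OsNAC5 had log2 changes of 0.49 ± 0.55 and 0.44 ± 0.49 (SE), of the other sign, and neither passed (limma adjusted p over probe sets = 0.832 and 0.833). In all 3 probe sets overexpressor replicate 2 was the highest array and overexpressor replicate 3 the lowest.

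OsNAC3 (LOC4342753), a gene of abscisic acid and stress responses, had 1229, 1334 and 2126 on the overexpressor arrays, against 1929, 1754 and 1116 on the empty vector arrays. Replicate 3 was high in the overexpressor and low in the empty vector line, and the log2 change was -0.04 (SE 0.31, n = 3 arrays a line; limma adjusted p = 0.975). OsNAC4 (LOC4327485), a factor of hypersensitive cell death in rice, had 535, 613 and 711 on the overexpressor arrays, against 1033, 493 and 514 on the empty vector arrays. Empty vector replicate 1 was the highest array and the other 5 lay between 493 and 711. The log2 change came to -0.05 (SE 0.33, n = 3 arrays a line; limma adjusted p = 0.966). For SNAC2, OsNAC3, OsNAC4 and the dim OsNAC7 the 95% interval lay within 2-fold in either direction. That was 50 percent of the NAC genes, where the share over all genes was 43.6 percent. For OsNAC5 the interval ran from -1.11 to 0.97.

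The remaining NAC genes were close to background. OsNAC2 (LOC4336052, also OsTIL1), which acts on tillering and leaf senescence in rice, had 9.45, 22.3 and 93.6 on the overexpressor arrays, against 119, 113 and 66.3 on the empty vector arrays. It was above background on 1 overexpressor array, replicate 3, and on all 3 empty vector arrays, and that 1 array overlapped with the empty vector line. The fit gave a log2 change of -1.25 (SE 0.58, n = 3 arrays a line; limma adjusted p = 0.394), and -0.85 with dim arrays set to background. ONAC010 (LOC4343630), the rice relative of a wheat gene of grain protein and senescence, acts in anther opening in rice. It had 37.7, 116 and 66.0 on the overexpressor arrays, against 44.4, 49.4 and 86.5 on the empty vector arrays, and the lines overlapped. Its log2 change was 0.17 (SE 0.45, n = 3 arrays a line; limma adjusted p = 0.908). OsNAC7 (LOC4341201) belongs to the branch of the family that holds secondary wall regulators. It was above background only on empty vector replicate 2, at 39.2, and its log2 change was -0.25 (SE 0.31, n = 3 arrays a line; limma adjusted p = 0.789).

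Of the 17 bZIP genes, 0 passed by limma, where 0.525 percent of all genes passed. The ordinary linear model called 0 of them too, but it called only 1 of all 17905 genes. By limma 4 bZIP genes had an unadjusted p under 0.05, 23.5 percent, where 14.2 percent of all genes had. They were OsLG2, OsbZIP83, OsbZIP49 and OsbZIP06, the last of which was under background on all 6 arrays. The lines did not overlap for 5 bZIP genes, higher in the overexpressor for 3, OsbZIP49, OsbZIP52 and the dim OsbZIP06, where the share over all genes was 11.8 percent, and lower for 2, where it was 9.36 percent. The log2 changes ran from -1.78 to 0.99 with a median of 0.09, and 10 were above 0 and 7 below. On all arrays 11 were above background, 5 on part of them and 1, OsbZIP06, on none, where 9.12 percent of all genes were on none, and 14 passed the filter on dim probe sets. Of the 17, 11 were placed in the TGA and TGA-like group, 3 among the ER stress factors and 3 in neither. OsLG2 was placed in the TGA-like group although it carries no TGA name in the gene table.

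OsLG2 and OsbZIP83, both placed in the TGA-like group, had the largest fitted log2 changes among bZIP genes and were dim in the overexpressor. OsLG2 (LOC4325063, also OsbZIP11) is the rice relative of maize liguleless2, which is needed to set the boundary of leaf blade and sheath in maize. Its intensity was 21.5, 10.5 and 18.9 on overexpressor replicates 1 to 3, against 79.4, 105 and 105 on empty vector replicates 1 to 3. No overexpressor array was above background and all 3 empty vector arrays were, and the lines did not overlap. In the mean of log2 values it was at least 3.21-fold lower in the overexpressor. This bound sets the empty vector mean over the overexpressor arrays, each at its own value or, where that was dimmer, at background. The bound takes no account of the spread between arrays. The fitted log2 change was -1.78 (SE 0.32, n = 3 arrays a line; limma adjusted p = 0.0735) and did not pass. The other probe set of OsLG2 had 4.84, 1.40 and 1.00 on the overexpressor arrays, against 31.2, 62.8 and 41.9 on the empty vector arrays, and was above background on 2 of the empty vector arrays. With the mean over both probe sets the log2 change was -1.74 and passed (limma adjusted p = 0.0454). With array weights it was -1.68 and passed too (adjusted p = 0.0412), where 405 of all 17905 genes passed, against 94 in the main fit. Among probe sets past the filter the change was the same as in the main fit, -1.78, and passed (adjusted p = 0.0359). OsLG2 entered that filter only through the empty vector arrays, where it was high, so the pass there adds no support. OsLG2 did not pass with the replicate block (adjusted p = 0.0849) or without both replicate 2 arrays (adjusted p = 0.107). The probe set used is of a type whose oligonucleotides can match other transcripts, and the other is of the unique type.

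OsbZIP83 (LOC4351527, also TGAL11) had 2.36, 6.67 and 6.84 on the overexpressor arrays, against 62.6, 53.4 and 31.6 on the empty vector arrays. It was under background on all overexpressor arrays and above it on all empty vector arrays, by little on replicate 3, where background was 28.6. By the same bound on means the overexpressor was at least 1.59-fold lower, again without account of the spread between arrays. Empty vector replicate 3, at 31.6, lay under the background of overexpressor replicate 2, 32.4, so single arrays do not all hold to that fold. The fitted log2 change, -1.59 (SE 0.29, n = 3 arrays a line; limma adjusted p = 0.0734), did not pass, and with dim arrays set to background it was -0.48, smaller in size than 0.95 for OsbZIP49, 0.82 for OsbZIP52, -0.62 for OsbZIP37 and 0.59 for OsbZIP50. OsLG2 kept the largest size there, at -1.29. OsbZIP83 passed with array weights (-1.56, limma adjusted p = 0.0438), where 405 of all 17905 genes passed. It did not pass with the replicate block (adjusted p = 0.0846) or without both replicate 2 arrays (adjusted p = 0.108). OsLG2 and OsbZIP83 were below background on all arrays of 1 line and above it on all of the other, as were 149 of all genes, 0.832 percent.

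**Figure D2:**
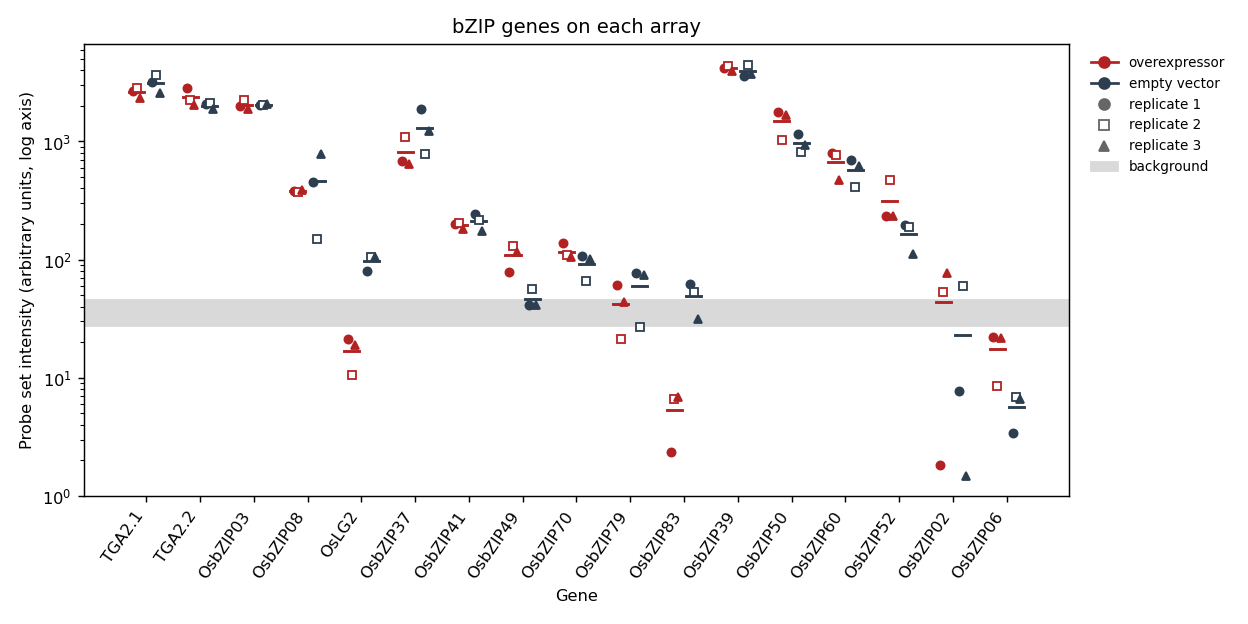
Probe set intensity (log axis) of the 17 bZIP genes on each array, overexpressor left of empty vector for each gene, with marker shapes for replicates 1 to 3, short lines at the mean of 3 arrays and a grey band over the background levels of the 6 arrays. OsLG2 and OsbZIP83 lie under the band on the overexpressor arrays, at no more than 21.5 and 6.84, and above it or in it on the empty vector arrays.

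Among the other TGA-like genes, OsbZIP49 (LOC4341530, also TGAL8), which acts on tiller angle in rice, had 78.7, 131 and 117 on the overexpressor arrays, against 41.0, 56.6 and 41.6 on the empty vector arrays. All overexpressor values were above all empty vector values, and empty vector replicate 1 was not above background. The log2 change came to 0.99 (SE 0.34, n = 3 arrays a line; limma adjusted p = 0.252) and did not pass, with an interval of 0.18 to 1.79. OsbZIP37 (LOC9270267, also TGAL6), a regulator of diterpenoid phytoalexin genes in rice, had 686, 1094 and 648 on the overexpressor arrays, against 1873, 782 and 1229 on the empty vector arrays. Empty vector replicates 1 and 3 were the highest arrays, and overexpressor replicate 2 lay above empty vector replicate 2. The log2 change was -0.62 (SE 0.37, n = 3 arrays a line; limma adjusted p = 0.523), and -1.17 ± 0.24 without both replicate 2 arrays (adjusted p = 0.09); with single arrays removed it ran from -0.93 to -0.31. OsbZIP79 (TGAL4), a suppressor of phytoalexin synthesis in rice cells, had 60.9, 21.3 and 43.6 on the overexpressor arrays, against 77.2, 26.9 and 74.6 on the empty vector arrays. It was above background on 2 arrays of each line, lowest on replicate 2 of both, and its log2 change was -0.36 (SE 0.46, n = 3 arrays a line; limma adjusted p = 0.79); with single arrays removed it ran from -0.73 to -0.07.

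OsbZIP08 (LOC9266109, also TGAL1) had 379.9, 374 and 392 on the overexpressor arrays, against 454, 150.4 and 782 on the empty vector arrays. The overexpressor arrays lay between 374 and 392, while the empty vector line held both the lowest and the highest array. The fit gave a log2 change of 0.0046 (SE 0.53, n = 3 arrays a line; limma adjusted p = 0.998), and -0.61 without both replicate 2 arrays (adjusted p = 0.329). OsbZIP70 (LOC4346610, also TGAL7) had 137, 108.5 and 106 on the overexpressor arrays, against 107, 65.7 and 101 on the empty vector arrays. OsbZIP41 (LOC4338933, also TGAL5) had intensities of 182 to 205 in the overexpressor and 176 to 244 in the empty vector line. The log2 changes of OsbZIP70 and OsbZIP41 were 0.33 (SE 0.33, n = 3 arrays a line; limma adjusted p = 0.722) and -0.10 (SE 0.26, n = 3 arrays a line; limma adjusted p = 0.914).

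The 3 TGA2 genes were bright and steady. TGA2.1 (LOC4344349) encodes a partner of the rice NPR1 relative NH1 and restrains basal defence against a bacterial pathogen. It had 2653, 2839 and 2346 on the overexpressor arrays, against 3209, 3625 and 2574 on the empty vector arrays, and the lines overlapped. Its log2 change was -0.25 (SE 0.21, n = 3 arrays a line; limma adjusted p = 0.669). TGA2.2 (OsbZIP28) had 2823, 2259.8 and 2043 on the overexpressor arrays, against 2061, 2098 and 1879.9 on the empty vector arrays, with overexpressor replicate 1 apart from the other 5 arrays. The log2 change came to 0.23 (SE 0.20, n = 3 arrays a line; limma adjusted p = 0.697). OsbZIP03 (LOC4326907, also TGA2.3) had 1980.4, 2247 and 1894 on the overexpressor arrays, against 2019.6, 2027 and 2079 on the empty vector arrays. The empty vector arrays lay inside the overexpressor range. The change was -0.0046 with a 95% interval of -0.43 to 0.42, the narrowest among the members, and its SD within lines was 0.09 on the log2 scale.

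The 3 ER stress factors were above background on all arrays and overlapped between the lines. OsbZIP50 (LOC4341554, also OsBZIP74), whose messenger RNA is spliced by the ER sensor IRE1, had 1768, 1028 and 1674 on the overexpressor arrays, against 1159.8, 808 and 937 on the empty vector arrays. Overexpressor replicates 1 and 3 were the highest arrays, and within replicates 1, 2 and 3 the log2 difference was 0.60, 0.34 and 0.83. The log2 change was 0.59 (SE 0.28, n = 3 arrays a line; limma adjusted p = 0.407), and whether the probe set tells the spliced from the unspliced form was not analysed here. OsbZIP39 (BZIP39) and OsbZIP60 (LOC4344086) encode membrane-bound factors of the same response. OsbZIP39 had 4226, 4379.9 and 3937 on the overexpressor arrays, against 3603, 4479 and 3725 on the empty vector arrays, and a log2 change of 0.09 (SE 0.19, n = 3 arrays a line; limma adjusted p = 0.881). OsbZIP60 had 792, 763 and 470.4 on the overexpressor arrays, against 702, 409 and 625 on the empty vector arrays, and a log2 change of 0.22 (SE 0.31, n = 3 arrays a line; limma adjusted p = 0.82). The table gives BZIP60 as a synonym of both LOC4341554 and LOC4344086, and the names here follow the OsbZIP numbers.

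OsbZIP52 (LOC4341753, also RISBZ5), which lowers tolerance of cold and drought when overexpressed in rice, had 235, 470.3 and 236 on the overexpressor arrays, against 198, 189 and 111 on the empty vector arrays. The lines did not overlap, and overexpressor replicate 2 was the highest array. The fit gave a log2 change of 0.82 (SE 0.38, n = 3 arrays a line; limma adjusted p = 0.393), with an interval of -0.07 to 1.71. OsbZIP02 (LOC4325565) was above background on 2 overexpressor arrays, at 53.5 and 76.4, and on 1 empty vector array, at 60.3, with the other 3 arrays between 1.48 and 7.78. Its spread within lines was the widest of the members, an SD of 1.20 on the log2 scale, and its log2 change was 0.62 (SE 0.76, n = 3 arrays a line; limma adjusted p = 0.782); with single arrays removed it ran from 0.15 to 1.34. OsbZIP06 (LOC4325139) had intensities of 8.50 to 22.1 in the overexpressor and 3.39 to 6.94 in the empty vector line, all under background, so no fold is given.

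**Figure D3:**
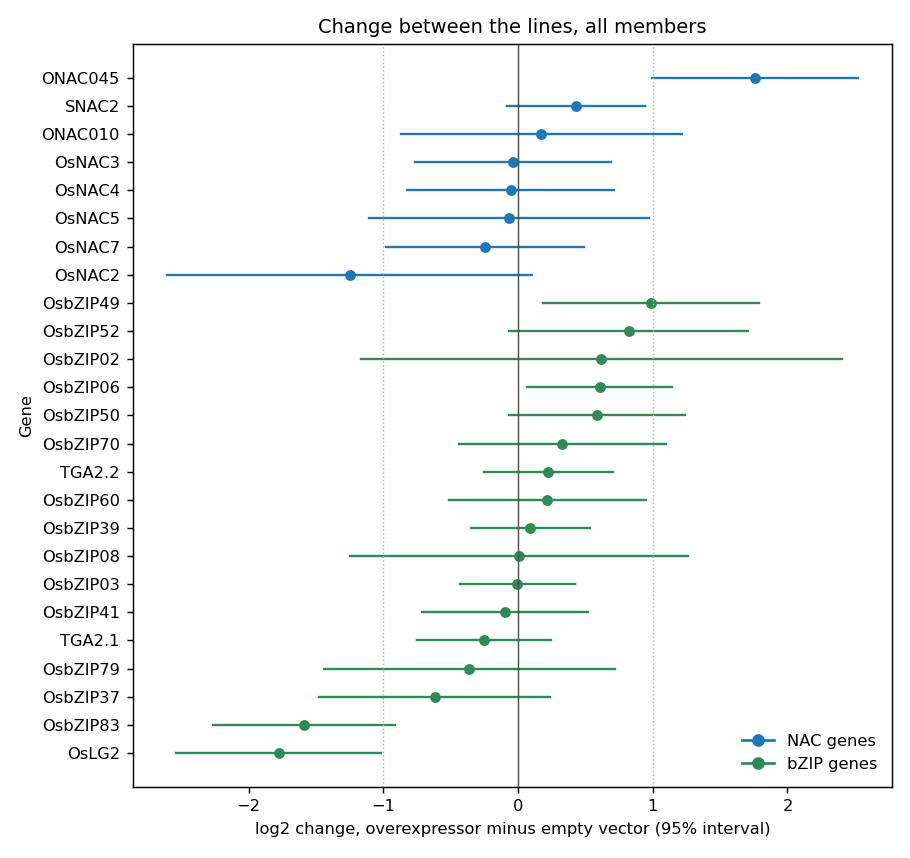
The log2 change between the lines, overexpressor minus empty vector on the log2(intensity + 16) scale, for the 25 genes, NAC above bZIP and each sorted by size; points are limma estimates, bars 95% intervals unadjusted for the number of genes, and dotted lines mark 2-fold. ONAC045 lies to the right at 1.76 and OsLG2 and OsbZIP83 to the left at -1.78 and -1.59, and of the other intervals that of OsbZIP49 lies above 0 and the rest include 0, apart from OsbZIP06, which was under background on all arrays and whose change turned to -0.14 with dim arrays set to background.

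The members differed in how well the 3 replicate numbers held 1 sign. The overexpressor minus empty vector difference had the same sign in all 3 replicates for 2 of 8 NAC genes, ONAC045 and SNAC2, and for 10 of 17 bZIP genes, where the share over all genes was 42.9 percent. Among bZIP genes these were TGA2.1, TGA2.2, OsLG2, OsbZIP49, OsbZIP70, OsbZIP79, OsbZIP83, OsbZIP50, OsbZIP52 and OsbZIP06, the last under background on all arrays. Replicate 2 alone was above 0 for OsbZIP08, OsbZIP37, ONAC010 and OsbZIP03. None of the 25 genes departed over 4-fold in 1 direction on replicate 2 of both lines, as CCA1 did, where 0.882 percent of all genes did. The widest departures on replicate 2 were 1.90 for OsbZIP02 and -1.88 for OsbZIP08, both in the empty vector line and on the log2 scale. Without both replicate 2 arrays the log2 change of the other NAC genes was 0.29 for SNAC2, 0.14 for OsNAC3, -0.24 for OsNAC4, -0.997 for OsNAC2, -0.25 for ONAC010 and -0.05 for OsNAC7. That of bZIP genes was 0.99 for OsbZIP02, 0.71 for OsbZIP50, 0.61 for OsbZIP52, 0.19 for OsbZIP70, 0.15 for OsbZIP39, -0.11 for OsbZIP60 and -0.08 for OsbZIP03, and none of these passed there. The 95% interval lay within 2-fold for 6 bZIP genes: TGA2.1, TGA2.2, OsbZIP03, OsbZIP41, OsbZIP39 and OsbZIP60. That was 35.3 percent of the bZIP genes, where the share over all genes was 43.6 percent.

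**Figure D4:**
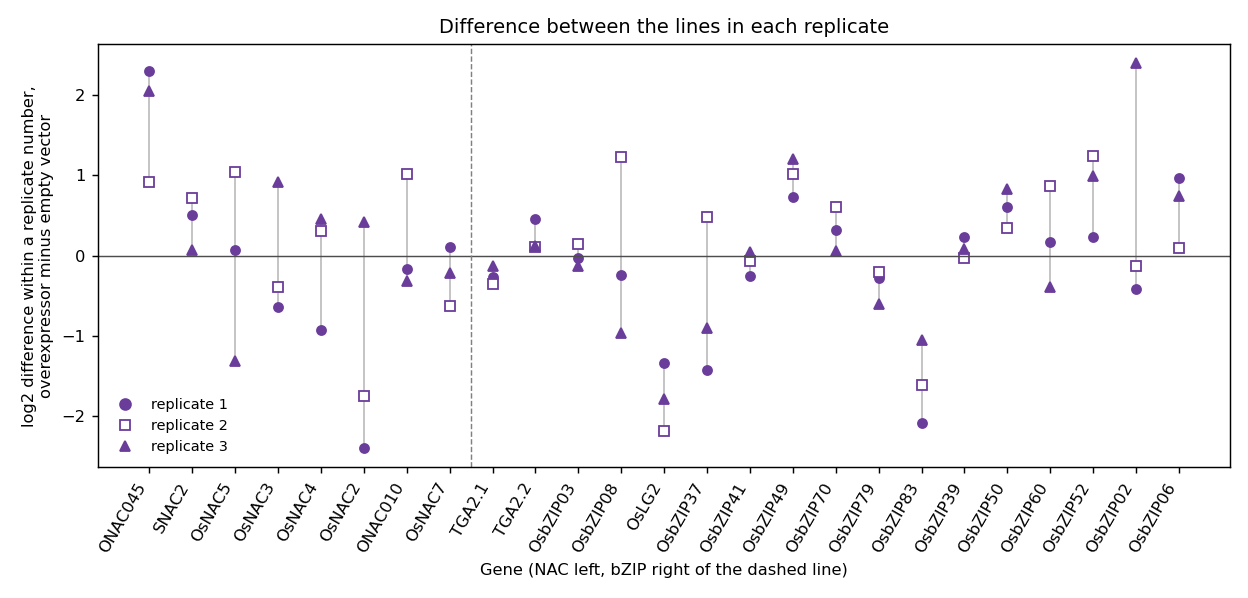
The log2 difference, overexpressor minus empty vector on the log2(intensity + 16) scale, within each replicate number for the 25 genes, with filled circles, open squares and filled triangles for replicates 1, 2 and 3 and a grey line over their range. All 3 points lie above 0 for ONAC045, from 0.92 to 2.30, and below 0 for OsLG2, from -2.19 to -1.35, while OsNAC5 ranges from -1.31 to 1.05.

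Genes that work upstream or downstream of these families were counted in the same fit, and 0 of 36 passed by limma in either direction. SAPK kinases, which phosphorylate bZIP factors of the abscisic acid pathway, had 0 of 10 past the test, with a median log2 change of 0.10 and a range of -1.57 to 0.73. The lowest was SAPK9 (LOC4352660), at 4726, 118 and 3721 on the overexpressor arrays, against 7304, 1002 and 8362 on the empty vector arrays, with an SE of 1.44; it was low on replicate 2 of both lines, and its adjusted p was 0.699. Of 18 ER chaperone and folding genes, which ER stress bZIP factors act on, 0 passed, with a median of 0.04 and a range of -0.51 to 0.55. The chaperone gene BIP1 had a log2 change of 0.03 (SE 0.37, n = 3 arrays a line; limma adjusted p = 0.982). Of 4 chlorophyll breakdown genes, which senescence NAC factors act on in rice, 0 passed. SGR (LOC4347672), for the magnesium-removing enzyme of this route, had 3202, 2379 and 1628 on the overexpressor arrays, against 1061, 752 and 827 on the empty vector arrays. The lines did not overlap, and the log2 change was 1.39 ± 0.29 (limma adjusted p = 0.0928). NYC1, for a chlorophyll b reductase, had 6843, 3117 and 5868 on the overexpressor arrays, against 13496, 6308 and 13189.8 on the empty vector arrays, and a log2 change of -1.05 ± 0.41 (adjusted p = 0.304). Of 3 secondary wall cellulose synthase genes and 1 abscisic acid receptor gene, 0 passed, with log2 changes of 0.45 to 0.55 and 0.08.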

How the data were processed

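RNA from leaf blades was measured on 6 Affymetrix rice arrays, and 10 ug of total RNA was labelled as biotinylated cRNA, per the labels. The values are probe set intensity on a linear scale as deposited by the authors; each array had the same trimmed mean, 500.1, with 2 percent removed at each end. The sources used here do not say how probe sets were summarized. Groups came from the titles, since the overexpressor samples are described with the text of the control. The labels speak of independent hybridizations, not of separate plants, so p-values measure the spread between these samples, which may be technical. The number of arrays limits the precision.

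Of 57381 probe sets, 187 controls were left out. A table of the platform's annotation paired 22436 probe sets with 1 gene; genes were named from the RefSeq table of assembly ASM3414082v1. limma 3.58.1 in R 4.3.3 (lmFit, eBayes with trend) was fitted on log2(intensity + 16) over 57194 probe sets, 2-sided. Each gene was then read from its probe set with the highest mean, and p-values were adjusted over 17905 genes by Benjamini-Hochberg. Of the members' probe sets, 2 NAC and 5 bZIP ones are of types that can cross-hybridize. The functions were tested on simulated data.

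Same-numbered arrays had correlations of 0.312, 0.4 and 0.245 between their deviations from line means, and others -0.411 to 0.273. The labels do not say that the replicate numbers pair plants, so the number was fitted as a block only among the alternatives. The 0.245 of replicate 3 lay under the highest of the others, 0.273, so these correlations do not establish that the numbers pair samples. The members and lists were chosen with earlier results of these data known. Values on each array are given for members past the test in any of 3 fits. They are also given for members with the highest means, a widely used name or the largest changes among those past the filter on dim probe sets. OsbZIP08, OsbZIP60 and OsbZIP79 met none of these criteria and are given on each array as well. For the others ranges or single arrays are given. The pattern for ER chaperones also took in 8 genes called bip with 3 digits, which were left out of its range after their values were seen; 0 of them passed.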

Additional observations from a re-analysis of the deposited data

How the results depend on the processing

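Under 17 alternatives, 3 of the 25 members passed the test at least once: ONAC045, OsLG2 and OsbZIP83, with the values given in the report. The count of NAC genes past the threshold, 0, became 1 with array weights and 1 without both replicate 2 arrays. That of bZIP genes, 0, became 1 of 14 with the filter on dim probe sets, 1 with the mean over probe sets and 2 with array weights. The gene called with the filter was OsLG2, which entered it only through the empty vector arrays. Of all genes, 131 of 14870 passed with the filter and 70 of 17905 with the mean over probe sets. Over all genes the count of 94 became 171 after median centring, 405 with array weights, 1 by the ordinary linear model, 241 without both replicate 2 arrays and 237 with the replicate block, and 4 to 50 with single arrays removed. The replicate block, in the pairing by replicate number, changed no call of a member or list. The median log2 change of bZIP genes, 0.09, was 0.23 with unique probe sets only and -0.081 without both replicate 2 arrays, and -0.0093 to 0.18 with single arrays removed. Median centring and quantile normalization moved the median of all genes by less than 0.1.

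The log2 change kept its sign in 15 members. It turned in OsNAC5 with the mean over probe sets (0.29), in OsNAC3 and ONAC010 with array weights (0.077 and -0.10) and without both replicate 2 arrays (0.14 and -0.25), and in OsbZIP60 without both replicate 2 arrays (-0.11). OsbZIP08 turned to -0.028 with a pseudocount of 64, -0.10 after quantile normalization, -0.35 with array weights and -0.61 without both replicate 2 arrays. OsbZIP06 turned to -0.14 with dim arrays set to background, an alternative chosen after seeing the data. With single arrays removed, the change ran from -0.51 to 0.41 for OsNAC5, -0.28 to 0.11 for OsNAC3, -0.24 to 0.28 for OsNAC4, -0.16 to 0.49 for ONAC010, -0.47 to 0.036 for OsNAC7, -0.075 to 0.047 for OsbZIP03, -0.62 to 0.51 for OsbZIP08, -0.22 to 0.0047 for OsbZIP41 and -0.0093 to 0.45 for OsbZIP60. Among members that kept their sign, it moved by over 1.5 times for OsNAC2 (-1.85 to -0.80), TGA2.1 (-0.39 to -0.14), TGA2.2 (0.095 to 0.33), OsbZIP70 (0.14 to 0.44), OsbZIP39 (0.032 to 0.19), OsbZIP52 (0.50 to 0.98) and OsbZIP37, OsbZIP79 and OsbZIP02, given in the report. None of the genes whose sign turned passed under any alternative, and the cause was not tested. Signal near background limits OsNAC2, OsNAC7, ONAC010, OsbZIP02, OsbZIP06, OsbZIP49, OsbZIP79, OsbZIP83 and the overexpressor values of OsLG2.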
